A study of Rattus norvegicus with 2 samples.

Results

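The alarmin, granule and receptor genes of neutrophils described here are S100a8, S100a9, Mpo, Ltf, Camp, Lcn2, Mmp8, Mmp9, Csf3r and Fpr1. They were selected from the measured values of the comparison below together with what neutrophils are known to make, so that their differences are given as a description and carry no test. They are 10 of 36174 gene names on the array and are represented by 12 probes, each printed in 1 spot. Of the 10 genes, 8 passed the filter on dim signals, all of them in both groups. S100a8 and S100a9, which encode the calcium-binding alarmins of neutrophils, were higher in the cervical lymph node RNA of the restraint stress group than in that of the control group, by 15.9-fold and 13.7-fold. In RNA of whole nodes, more cells of a type and more RNA per cell cannot be told apart. Of the 8 genes for granule proteins and receptors, 6 differed by less than 2-fold and 2 (Mpo and Camp) had no probe well above background in either group.

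The rats were male Sprague-Dawley animals of 10 to 12 weeks. The control group (C) had no stress, and the restraint stress group (RS) was tied to a board in the supine position. RNA of the whole nodes of each group was hybridized in 1 color, Cy3, to 1 array. How long the animals of the RS array were restrained is not in its labels. The paper compares its RS30 group with the C group on arrays and does not state how many rats contributed to an array. Animals of both groups were anesthetized with halothane and killed with pentobarbital before decapitation. With 1 array per group, no test was run, and the only error is that of the spot measurement. Values are spot intensities in arbitrary units, and a difference is the log2 value in RS minus that in C, each relative to the 75th percentile of its array.

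Neutrophils load their granules in the bone marrow, before they enter the blood. Azurophil granules, which hold myeloperoxidase, are filled first, then the specific granules with lactoferrin and the cathelicidin precursor, and then the gelatinase granules. Transcripts for most granule proteins fall as the cell matures. S100A8 and S100A9 pair into calprotectin, which fills much of the cytosol of neutrophils and monocytes, binds zinc and manganese, and signals as an alarmin when released. Both genes are also expressed by monocytes and can be induced in macrophages and epithelia.

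The probes that carry the result are shown 5′ to 3′, in the sense of the probe as the files give it. Capitals mark the longest run that the S100a8 and S100a9 probes have in common, 9 bases. Ltf is shown because it was the lowest of the measured granule genes, and the pair for Camp because their positions lie on opposite strands.
S100a8: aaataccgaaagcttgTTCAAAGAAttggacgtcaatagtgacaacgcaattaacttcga
S100a9: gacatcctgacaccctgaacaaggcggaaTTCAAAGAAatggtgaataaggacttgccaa
Ltf: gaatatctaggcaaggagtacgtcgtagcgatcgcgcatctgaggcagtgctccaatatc
Camp, reverse strand: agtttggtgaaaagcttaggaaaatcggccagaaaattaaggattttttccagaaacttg
Camp, forward strand: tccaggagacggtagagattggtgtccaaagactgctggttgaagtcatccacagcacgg

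Positions are those of the array files (rat, rn4). The S100a8 probe covers bases 182962328 to 182962387 of chromosome 2, forward strand. The S100a9 probe covers bases 182987647 to 182987706 of the same chromosome, reverse strand, 25.3 kilobases away. The Ltf probe is on chromosome 8 from 115438446 to 115438505, forward strand. The Camp probes cover bases 114214987 to 114215046 (reverse strand) and 114216548 to 114216607 (forward strand) of chromosome 8. The files do not say which exon or UTR a probe matches. The longest run that any other gene's probe on the array had in common with the S100a8 probe was 13 bases of 60, and for S100a9 it was 14.

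S100a8 read 19.3 ± 3.08 (scanner error of the spot) in C and 286 ± 28.7 in RS. After normalization this was a difference of 3.99 ± 0.27 log2 units (spot error), and an interval of 1.96 times that error ran from 3.46 to 4.52. S100a9 read 36.3 ± 4.29 in C and 464 ± 46.5 in RS, a difference of 3.78 ± 0.22 log2 units. Both alarmins were well above background in the control node and far higher in the stressed one. Markers of erythrocytes and of adipocytes were also higher in RS, with median log2 differences of 2.58 and 1.68, and their part in the alarmin difference was not tested.

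The differences of the 2 genes themselves lay 0.21 log2 units apart, less than the combined spot error of 0.35. Among the 19214 genes above background on both arrays, S100a8 ranked 7 and S100a9 ranked 12 by size of increase. Of the 21096 genes screened, 730 (3.46%) were higher by 2-fold or more on the RS array and 903 (4.28%) were lower. Since this contrast chose the members, the ranks of S100a8 and S100a9 are a description only. For the same reason, the 2 of 8 measured members that were higher and the 0 that were lower are not read against these shares.

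**Figure D1:**
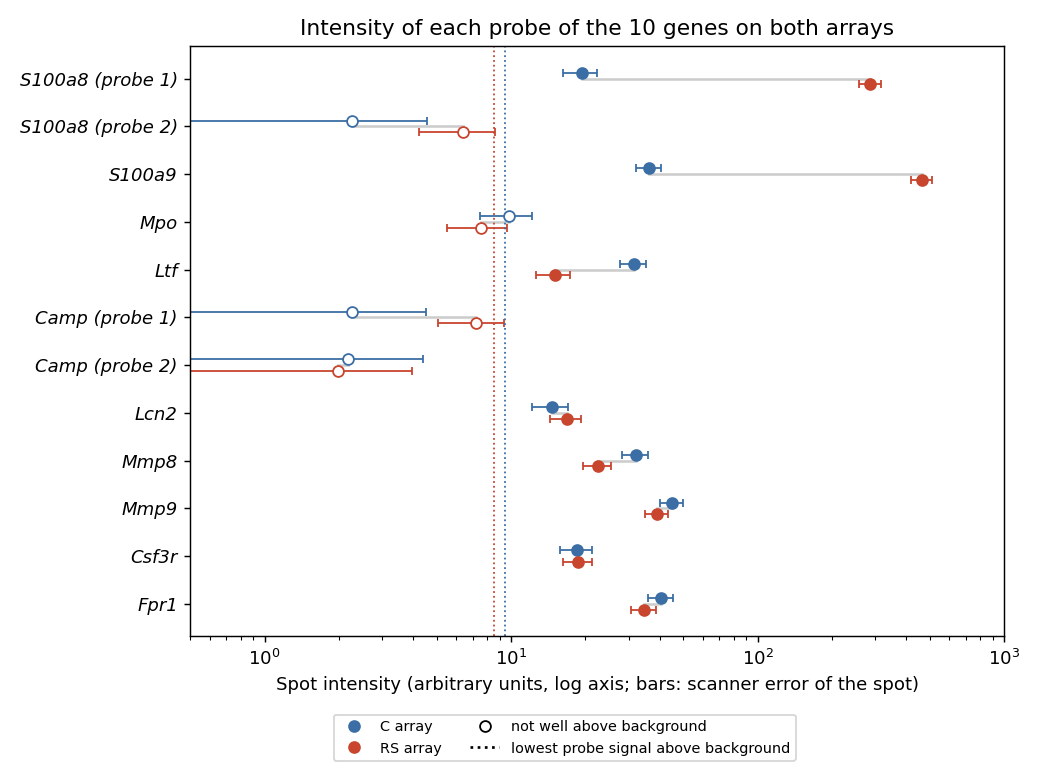
Intensity of each probe of the 10 genes on the C array (blue) and the RS array (red), on a log axis, with the scanner error of the single spot as bars, which are cut off at the left edge for the dimmest spots; open circles are not well above background, and dotted lines mark the lowest probe signal called above background on each array. Of the probes above background, those for S100a8 and S100a9 are farthest apart between the arrays, at 19.3 and 286 and at 36.3 and 464.

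The size of the alarmin difference depended on how the background was treated. With limma's normexp correction, which adds an offset to every signal and so shrinks differences of dim genes, the log2 difference was 1.98 for S100a8 and 2.44 for S100a9. S100a8 also has a second probe, made from a GenBank sequence that the files leave unmapped. It read 2.27 in C and 6.41 in RS, both below the background call, and with the mean over both probes the log2 difference of S100a8 was 2.79. Both genes stayed past 2-fold in all 11 alternatives, some of which return the main value by construction, as given at the end.

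The promoter window of S100a9 in RefSeq (GRCr8, minus strand, 250 bases before the start to 50 after it) is shown without its last 50 bases, chr2:178490623-178490872, because S100a9 is the alarmin that the promoter table holds. Capitals mark a TATA box (TATAAA, searched on both strands), which begins 42 bases before the annotated start.
S100a9 promoter: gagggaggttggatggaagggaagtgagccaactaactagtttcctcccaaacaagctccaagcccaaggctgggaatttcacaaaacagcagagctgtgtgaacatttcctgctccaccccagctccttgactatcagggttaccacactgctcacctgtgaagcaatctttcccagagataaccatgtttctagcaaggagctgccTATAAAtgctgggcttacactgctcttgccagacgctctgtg

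Promoter windows were found for 8 of the 10 genes, not for S100a8 and Mmp9. TATAAA was in 14.2% of all 33469 windows and in 2 of these 8, S100a9 and Mmp8. The C/EBP letters TTNNGCAA were in 10.6% of all windows and in 2 of 8, Lcn2 and Mmp8, and a loose NF-kB motif (GGG and CC with 5 free bases between them) was in 47.3% of all and in 5 of 8. The STAT letters TTCNNNGAA (8.87% of all) were in Mmp8 alone. The AP-1 letters TGANTCA (7.33%) and a glucocorticoid receptor motif (GNACA and TGTNC with 3 free bases between them, 0.439%) were in none of the 8. Apart from TATAAA, none of these motifs was in the S100a9 window.

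The granule proteins are taken in the order in which the granules form. Mpo encodes myeloperoxidase, the main enzyme of azurophil granules (chromosome 10, 76094059 to 76094118, forward strand). It read 9.82 ± 2.32 in C and 7.56 ± 2.05 in RS, neither well above background, so no fold is given.

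Ltf encodes lactoferrin, the iron-binding protein of specific granules. It read 31.5 ± 3.76 in C and 15.0 ± 2.38 in RS, which was 1.96-fold lower after normalization, a log2 difference of -0.97 ± 0.29. This was the one granule or receptor gene whose interval of 1.96 spot errors, from -1.53 to -0.41, did not include 0. It stood at the 2-fold threshold: without normalization between the arrays the difference was -1.07, and with normexp it was -0.23. Of all genes screened, 4.44% were lower by as much or more.

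Camp encodes the cathelicidin antimicrobial peptide. The reverse strand probe read 2.26 in C and 7.21 in RS, and the forward strand probe read 2.19 and 1.98. None of these 4 signals was well above background. Since the probes lie on opposite strands, at most 1 of them can match the labeled transcript of the gene.

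Lcn2 encodes lipocalin 2, which withholds iron from bacteria by binding their siderophores (chromosome 3, 11511592 to 11511651, reverse strand). It read 14.6 ± 2.43 in C and 16.9 ± 2.42 in RS, a log2 difference of 0.31 ± 0.32. Mmp8, the neutrophil collagenase (chromosome 8, 4410657 to 4410716, forward strand), had 32.0 ± 3.86 and 22.6 ± 2.97, a difference of -0.41 ± 0.26. Mmp9, the gelatinase that names the last granules to form (chromosome 3, 155992463 to 155992522, forward strand), had 45.0 ± 4.89 and 39.1 ± 4.27, a difference of -0.11 ± 0.22. For all 3 genes the interval of 1.96 spot errors included 0.

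**Figure D2:**
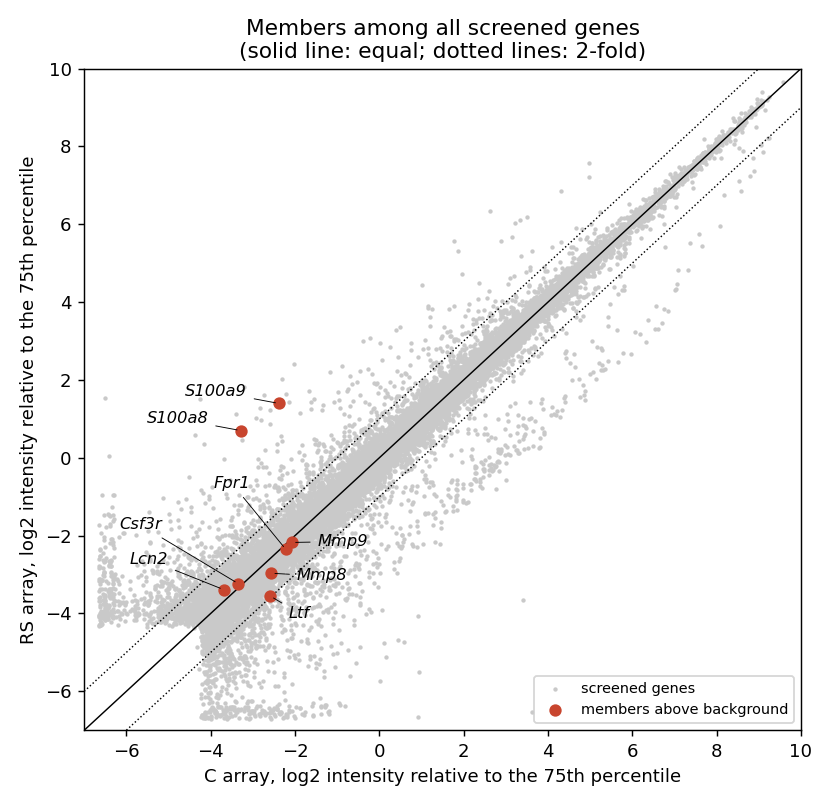
Each gray point is one of the 21096 screened genes, placed by its log2 intensity relative to the 75th percentile on the C array (x axis) and on the RS array (y axis); red points are the 8 members above background. S100a8 and S100a9 lie well above the dotted 2-fold line, and the other 6 members lie between the dotted lines, with Ltf nearest to the lower one.

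Csf3r encodes the receptor for granulocyte colony-stimulating factor, which drives neutrophil production and survival (chromosome 5, 145393491 to 145393550, forward strand). It read 18.6 ± 2.73 in C and 18.8 ± 2.59 in RS, a log2 difference of 0.11 ± 0.29. Fpr1 encodes the formyl peptide receptor, which guides neutrophils to bacterial products (chromosome 1, 56587441 to 56587500, reverse strand). It had 40.6 ± 4.70 and 34.5 ± 4.02, a difference of -0.13 ± 0.24. Neither receptor differed by more than its spot error.

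Over the 6 granule and receptor genes that were measured, the log2 difference ran from -0.97 to 0.31 with a median of -0.12, with 2 genes above 0 and 4 below. The median over all screened genes was 0.016. Over the 8 measured members including the alarmins the median was 0.0042. The spread between spots was read from probes printed in 10 spots. For intensities from 16 to 64 the SD of log2 intensity had a median of 0.15 in C (83 probes) and 0.14 in RS (84 probes). For intensities from 8 to 16, where Lcn2 lay in C and Ltf in RS, it was 0.28 in both groups (32 and 28 probes). Neither error includes differences between rats.

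**Figure D3:**
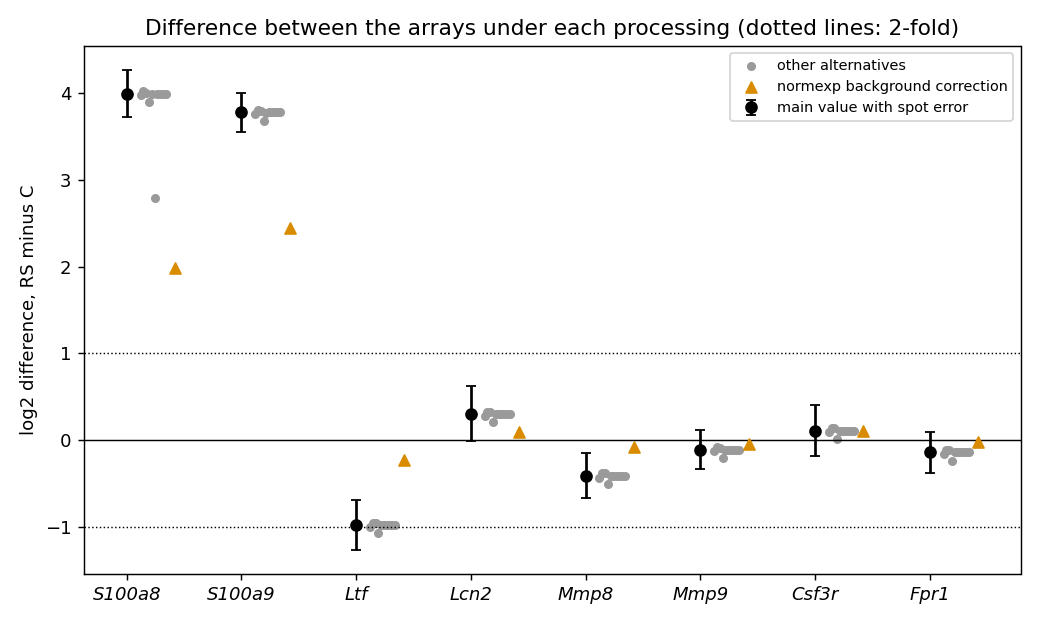
Log2 difference between the arrays (RS minus C) for the 8 members above background: black points are the main values with the spot error, gray points are 10 alternative ways of processing, and orange triangles are the normexp background correction. S100a8 and S100a9 stay above the dotted 2-fold line in each, between 1.98 and 4.02 and between 2.44 and 3.80, while Ltf passes the lower line only without normalization, at -1.07.

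Other genes of neutrophils were examined in 3 lists, of granule proteins, of receptors and functions, and of granulocyte transcription factors. Of 60 names, 56 were on the array and 42 were screened. Of these, 7 (16.7%) were higher by 2-fold or more and 1 (2.38%) was lower. Over all genes screened the shares were 3.46% and 4.28%. The lists were chosen with earlier results of these data known, so their counts are not read against these shares. Np4, Trem1 and Trem3, among the 7, passed the filter in RS alone. With genes above background on both arrays only, 4 were higher. The median log2 difference over the 42 was 0.12. With normexp, 3 were higher, Cebpb, Cebpd and Anxa1, and over all genes 234 of 21099 were.

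Of the 23 other granule genes, 14 were screened, and 9 had no signal well above background in C or RS. Among these 9 were the azurophil granule proteases Elane (2.02 in C and 1.73 in RS), Prtn3 (2.38 and 2.17) and Ctsg (3.88 and 1.74). The neutrophilic granule protein gene Ngp (2.15 and 4.35) and Cd177 (4.44 and 1.74), a surface protein of neutrophils, were also below background. Of the 14 screened, 12 were counted as under 2-fold. Among them is Defa5, counted by a lower bound (at least 1.97-fold higher), so its difference may be larger. Lyz2, the lysozyme of neutrophils and macrophages and the brightest of the list, had 38650 and 35108, a log2 difference of -0.04. The list also holds genes that macrophages use, such as Cybb of the oxidase (137 and 142) and the integrin subunit Itgam (220 and 209).

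Defensins are small antimicrobial peptides, only some of which are stored in azurophil granules. In the rat they form a cluster of similar copies, whose probes may share signal. Which cells gave the signals below was not tested. Defa5 read 2.35 in C, below background, and 17.4 in RS, at least 1.97-fold higher. Np4 has a pair of probes of identical sequence, which read 3.86 and 2.13 in C, both below background, and 18.4 and 23.0 in RS. The probe with 3.86 and 18.4, the one that represents the gene, was at least 2.08-fold higher. The reverse strand probe of RatNP-3b, on the strand of the Defa5 and Np4 probes, read 2.08 in C, below background, and 10.3 in RS. The other RatNP-3b probe, on the forward strand, had 474 and 60.1, a log2 difference of -2.88, and this brighter probe represents the gene in the count above. The lower value of RatNP-3b therefore rests on 1 probe, on the other strand, and the mean over both probes gave -0.23. Defa10, read by a reverse strand probe, had 5.13 in C and 7.53 in RS, neither well above background.

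Among receptors and functions, 22 of 26 genes were screened and 4 were higher by 2-fold or more. Trem1, a receptor that amplifies inflammatory signaling in neutrophils and monocytes, read 8.79 in C, below background, and 21.8 in RS, at least 2.47-fold higher. The related Trem3 had 5.05, below background, and 26.9, at least 3.05-fold higher. Il1r2, the decoy receptor for interleukin 1, had 85.9 and 174, a log2 difference of 1.11. Anxa1, annexin A1, an anti-inflammatory protein abundant in neutrophils and in many other cells, had 2262 and 4964, a difference of 1.23, and was the brightest of the genes past 2-fold. With normexp the differences were 0.35 for Trem1, 0.51 for Trem3 and 0.75 for Il1r2, all under 2-fold. Ncf1, a subunit of the phagocyte oxidase and the brightest of the list, had 3954 and 3368, a difference of -0.13. Cxcr2, the receptor through which neutrophils follow CXCL1 and CXCL2, had 10.1, below background, and 15.6. After normalization the plain ratio of these signals was 1.66-fold, a log2 difference of 0.73 (0.15 with normexp). Its spot error interval ran from -0.11 to 1.57, on both sides of no difference. Cxcr1 was below background on both arrays (2.39 and 2.15).

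Of the transcription factors, Cebpb had 438 and 1849, a log2 difference of 2.18 ± 0.065, and its second probe gave 2.08. Cebpd, the brightest of the list, had 962 and 2987, a difference of 1.73. Both encode C/EBP proteins, which act in granulocyte differentiation and are also induced in many cell types. Runx1, a factor of early blood cell development, had 997 and 1017, a difference of 0.13. Cebpe, the C/EBP factor of specific granule genes, was below background on both arrays (5.93 and 9.01).

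The cytokines, chemokines and adhesion molecules that call neutrophils formed a further list, of which 14 of 17 genes on the array were screened. Of these, 4 were higher by 2-fold or more and 0 were lower. Cxcl1 had 20.5 and 624, Cxcl2 had 27.2 and 345, and Il6 had 9.99 and 98.6. Csf3, the ligand of Csf3r, had 181 and 353, a log2 difference of 1.06 ± 0.21, and 0.83 with normexp. Il1b was at the threshold, at 851 and 1586, a difference of 0.998, just under 2-fold. Cxcl12, the brightest of the list, had 3699 and 3636, a difference of 0.07.

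Of 12 genes listed as receptors and partners of the alarmins and granule proteins, 3 were higher by 2-fold or more, among them Emcn, which was listed in error. Cd14, the coreceptor of Tlr4, through which S100A8 and S100A9 can signal, had 312 and 927, a log2 difference of 1.67. Tlr4 itself had 65.5 and 58.5, a difference of -0.06. Timp1, an inhibitor of Mmp8 and Mmp9, had 320 and 1196, a difference of 2.0, and the brightest of the list, Timp2, had 4687 and 5225, a difference of 0.26. Emcn, which encodes endomucin, a protein of the endothelial surface and not a partner of the alarmins, had 20.6 and 43.2, a difference of 1.17 (0.41 with normexp).

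Of 11 other S100 genes screened, 1 was higher by 2-fold or more. This was S100b, a gene of glia, fat and dendritic cells, at 618 and 1554, a log2 difference of 1.43, with 1.50 for its second probe. S100a4, the brightest, had 7318 and 8271, a difference of 0.28. The median of the list was 0.12, with a range of -0.43 to 1.43. Of 13 other matrix metalloproteinases, 2 were just past 2-fold, Mmp2 (1.03) and Mmp23 (1.12), both under 2-fold with normexp (0.87 and 0.73). Mmp15, the brightest, was at -0.32.

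Markers of other cells were set beside the alarmins. Of the marker lists, those of erythrocytes and adipocytes differed most. For erythrocytes, 7 of 8 screened genes were higher by 2-fold or more, with a median log2 difference of 2.58 and a summed intensity of 10274 in C and 57613 in RS over 14 genes. Hba1 had 5953 and 33805, while Hbe1, an embryonic globin, was at least 2.64-fold lower. Adipocyte markers, a list added after the values of such genes were seen, had 12 of 16 screened genes higher by 2-fold or more (9 with normexp) and 0 lower, with a median of 1.68, a range of -0.05 to 3.71 and a summed intensity of 12741 in C and 26629 in RS over 17 genes. Adipoq, the hormone adiponectin, had 420 and 2615, and Lep, the hormone leptin, had 102 and 904. Plin1, which coats the lipid droplet, was at 2.02 and 3.71, below background in both groups, and Cd36, a fatty acid carrier also of macrophages and endothelium, had 2349 and 2114.

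The summed intensity of the 6 granule proteins was 135 in C and 108 in RS, and that of the 2 receptors was 59.1 and 53.3, against 55.6 and 751 for the 2 alarmins. Summed intensities, here and for the marker lists, were not scaled between the arrays, whose 75th percentiles were 189 and 176. The granule sum includes Mpo and Camp, which were below background.

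Of 16 macrophage and monocyte markers screened, 1 was higher by 2-fold or more, Cd14. The median of the list was 0.0071, and its summed intensity was 39950 and 35746. Cd68 had 2480 and 1915, a log2 difference of -0.27, and C1qb, the brightest, had 14243 and 13456, a difference of 0.02. Of 9 eosinophil, basophil and mast cell genes screened, 0 were higher and 1 was lower, Prg2, the major basic protein of eosinophils, at 409 and 166, a difference of -1.20 (-0.99 with normexp). The brightest of that list, Kit, was at 0.10.

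The defining genes of lymphocytes and of the node were present on both arrays, with all 15 markers screened, a median of -0.013, and 0 past 2-fold in either direction. The brightest, Prox1, a factor of lymphatic endothelium, had 23122 and 26283. Among the platelet markers (5 screened, median 0.43), the salivary gland and epithelium markers (6, median -0.15), the osteoclast markers (2, median 0.34) and the precursor and proliferation markers (4, median 0.18), 0 genes were past 2-fold. The brightest in these lists were Pf4 (0.94), Krt18 (-0.15), Acp5 (0.14) and Mki67 (0.26).

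**Figure D4:**
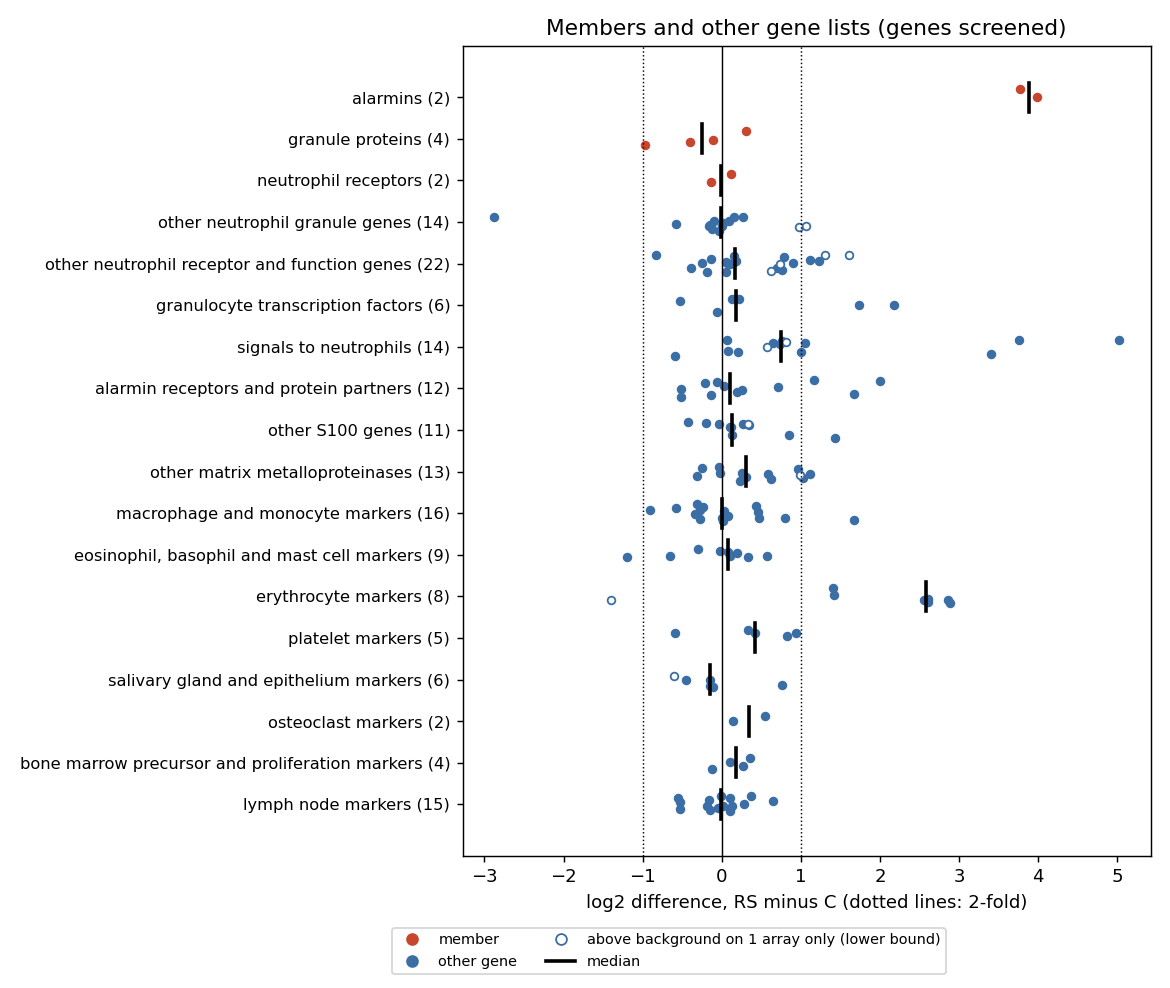
Log2 difference between the arrays (RS minus C) of every screened gene of each list but the adipocyte markers, with the number of genes in parentheses. Red points are members, blue points other genes, and black bars medians. Open points are lower bounds for genes above background on 1 array, except Cxcr2, whose point is the ratio of its signals. The alarmins (median 3.88) and the erythrocyte markers (2.58) stand to the right, while the granule proteins (-0.26) and neutrophil receptors (-0.01) lie around 0.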

How the data were processed

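Cervical lymph node RNA of the C and the RS group was measured on 1 Agilent SurePrint G3 Rat GE array each. Per the submitters' processing notes, Feature Extraction 11.5.1.1 was used; the deposited spot intensity values had the background subtracted but were not normalized across arrays. The authors' value table holds 1 log2 number per probe and array. It does not state its scale and lay within 0.1 of the values computed here for 100% of 45598 probes in each column (column medians -3.52 and -3.55), so its centring on the 75th percentile is inferred from this match.

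Control spots and outlier spots (489 in C, 660 in RS) were left out, log2 intensities were averaged per probe, and the 75th percentile over probes (intensities 189 and 176) was subtracted. A probe counted as well above background when over 50% of its spots were so marked, as for 54.7% and 54.9% of probes and 2 and 3 of 308 negative control spots. No probe was saturated. A gene was represented by its brightest probe and screened when that probe passed the background call in C, in RS or in both. Where it passed in 1 group alone, the fold is a lower bound, taken against the higher of its own signal and the lowest signal above background on the dim array (9.45 on C, 8.52 on RS). For Cxcr2 its own signal was the higher, so its fold is the ratio of its signals. The spot error combines the scanner errors of both arrays. No p-value was computed, since with 1 array per group the spread between animals cannot be estimated.

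All members were named with every probe; of other lists, genes past 2-fold, the brightest gene, Cxcr2 and Cd68 were named by rule, and a few further genes (Defa5, Defa10, Runx1, Il1b, Cxcr1, Tlr4, Cebpe, Cybb, Itgam and the granule genes below background) after their values were seen. The members and lists were chosen with earlier results of these data known, and the adipocyte list and the genes named from it after the values were seen. The 11 alternatives were 4 other scalings, normexp (offset 50), the deposited table, the mean over probes, outlier spots kept, the plain ratio in place of the bound, and 2 other filters. The steps were run on simulated data made from the C array with planted changes. That simulation had no spread between rats and used its own cutoff for background. It therefore does not check the calls of dim signals here. Software was limma 3.58.1 (R 4.3.3), numpy 2.4.6, pandas 2.3.3 and matplotlib 3.10.9 (Python 3.11.15). Promoter sequences are those of RefSeq (GRCr8), matched by symbol.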

Additional observations from a re-analysis of the deposited data

How the results depend on the processing

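No paired analysis was possible because C and RS were hybridized to 1 array each, so no replicate could be left out either. S100a8 and S100a9 were past 2-fold in each of the 11 alternatives. By construction, the plain ratio and the 2 other filters return the main value for a gene above background on both arrays. So does the mean over probes for a gene with a single probe. The deposited table lay within 0.1 of the main values, so it is no separate check. The log2 difference of S100a8 moved by more than its spot error to 1.98 with normexp and 2.79 with the mean over probes, and that of S100a9 to 2.44 with normexp. Normexp adds an offset, and the mean over probes takes in a probe below background. The number of members lower by 2-fold or more was 1 without normalization (Ltf), against 0. Of other neutrophil genes, the number higher was 3 with normexp, 4 with genes above background on both arrays only and 11 without a filter, against 7. In the remaining alternatives it ran from 6 (no normalization) to 9 (mean over probes and plain ratio). The number lower was 0 with the mean over probes and 3 without a filter, against 1. Fewer or more genes qualify by construction where the filter changes. Over all genes, 730 were higher and 903 lower, against 234 and 378 with normexp, 493 and 601 with genes above background in both groups, and 2031 and 2148 without a filter. Among the 66 values of the other measured members, some of them fixed by construction, 2 moved by more than the spot error. Both did so with normexp (Ltf to -0.23 and Mmp8 to -0.072). Mpo and Camp had a value only without the background filter, -0.28 and 1.78, from spots below background. No alternative turned the direction of a member or list gene past 2-fold. Between scalings the median over all genes lay from -0.084 (none) to 0.041 (median shift). Signals below background limit Mpo, Camp and the second S100a8 probe. The measured granule and receptor members were dim too, from 14.6 (Lcn2 in C) to 45.0 (Mmp9 in C). S100a8 in C was at 19.3. The lowest signals called above background were 9.45 in C and 8.52 in RS.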
